A study of Mus musculus with 8 samples.

Results

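Barrier-to-autointegration factor (BAF, encoded by Banf1), the nuclear lamins and the inner nuclear membrane proteins that bind them were examined in whole mouse testes, wild type or deficient in VRK1. The members were 9 of the 19505 named genes that had a probe: Banf1, the lamin genes Lmna, Lmnb1 and Lmnb2, the LEM domain genes Emd, Tmpo and Lemd3, the lamin B receptor gene Lbr, and Sun1, which the array files list under its older symbol Unc84a. Every non-control probe carrying one of these gene names was taken, which gave 17 probes of 41174 on the array. A probe was tested when at least 4 of the 8 arrays read it well above background, which 16 of the 17 did, among 26948 in all. Each of the 9 genes kept at least 1 tested probe, and the probe that was not tested belonged to Tmpo.

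VRK1 is a nuclear kinase that phosphorylates BAF. BAF is a small protein that binds double-stranded DNA and the LEM domain, and its phosphorylation loosens both contacts so that chromatin comes away from the envelope when a cell enters division. A-type and B-type lamins form the filament meshwork under the inner membrane, LEM domain proteins hold BAF and lamins there, and SUN proteins link the meshwork to the cytoskeleton and hold telomeres in meiotic cells. These steps act on proteins, whereas the arrays measured RNA.

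The animals were mice backcrossed to C57BL/6, taken 8 days after birth, before any sperm are made. VRK1-deficient mice were homozygous for a gene trap carrying a β-galactosidase and neomycin resistance fusion in an intron of Vrk1, and came from 1 embryonic stem cell clone. The allele is hypomorphic, so some full-length transcript is still made, and wild type mice carried no insertion. RNA of the testis was labelled with 1 dye (Cy3) and hybridized to 1 whole genome array per sample, 4 of each genotype. The paper describes these samples as biological replicates. Nothing in the labels says whether a sample was 1 animal or a pool, so the p-values measure the spread between these samples, which may be partly technical. The testis holds germ, Sertoli, Leydig, peritubular and other cells, and in such bulk RNA fewer cells of a type and less RNA per cell cannot be told apart.

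All 17 member probes were 60 bases long, and 3 of them spanned a stretch that is absent from the probe, as a probe across a splice junction does. The 7 probes printed here carry the readings of BAF, of both lamin types and of the LEM proteins whose probes disagreed, and each has at least 1 reading frame without a stop codon. Coordinates are on the mm7 mouse build named in the files. The Banf1 probe lies at chr19:5259878-5259937 on the minus strand. The Lmna probe lies at chr3:88597141-88597200 on the same strand. The Lmnb2 probe lies at chr10:80693604-80693739 and skips 76 bases.
Banf1 A_51_P314019: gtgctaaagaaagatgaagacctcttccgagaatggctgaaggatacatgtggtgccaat
Lmna A_52_P137765: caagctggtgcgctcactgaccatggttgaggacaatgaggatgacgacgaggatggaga
Lmnb2 A_52_P460319: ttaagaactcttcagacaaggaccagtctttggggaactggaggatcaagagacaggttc
The Lmnb1 probe shared at most 6 bases in a row with this Lmnb2 probe, so this pair of probes had no long stretch in common. The other Lmnb2 probe was not compared with it.

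Tmpo encodes the LAP2 proteins. The files name the first of its probes as the beta form (chr10:90708254-90708313), and they give no form for the second (chr10:90720707-90720766). The Lemd3 probes printed are the one that crosses 210 skipped bases (chr10:120321750-120322019) and the one farthest upstream (chr10:120375448-120375507). All 4 lie on the minus strand.
Tmpo A_52_P201311: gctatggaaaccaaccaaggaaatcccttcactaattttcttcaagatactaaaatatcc
Tmpo A_51_P328926: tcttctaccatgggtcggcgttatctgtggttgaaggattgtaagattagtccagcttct
Lemd3 A_52_P89756: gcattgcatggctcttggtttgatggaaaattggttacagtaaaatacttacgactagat
Lemd3 A_51_P124499: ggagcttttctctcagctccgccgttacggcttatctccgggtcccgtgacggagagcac
Both pairs come from within 1 gene, and their readings differed, as given below for each protein.

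Signals were expressed as the log2 of the background-corrected intensity against that array's 75th percentile, and a change is the VRK1-deficient mean minus the wild type mean on that scale. A probe was called when its limma p-value, with Benjamini-Hochberg adjustment across every probe tested, was under 0.05. Vrk1 itself averaged 0.16 ± 0.38 (SD, n = 4) in wild type and -3.85 ± 0.27 in VRK1-deficient testis, a log2 change of -4.00 (SE 0.21, limma adjusted p = 0.000135) that left 6.23% of the wild type signal (-2.79 and 14.5% with normexp correction). On slide 1 alone its limma adjusted p was 0.0622. The place of its probe relative to the insertion was not determined. Arrays had 63.5% to 69.2% of spots well above background and none saturated. Each slide held arrays of both genotypes (replicates 1 and 2 on slide 1, replicates 3 and 4 on slide 2), but wild type always lay at positions 1 and 2 and VRK1-deficient at positions 3 and 4, so position and genotype cannot be told apart. Wild type replicate 1 stood apart from its group: over all tested probes it correlated at 0.987 to 0.990 with the VRK1-deficient arrays and at 0.970 to 0.986 with the other wild type arrays. Results that rest on this array are therefore given with and without it. It was singled out from these same data by its likeness to the VRK1-deficient arrays. Leaving it out therefore tends to widen the genotype differences, and calls made without it are no separate support.

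No member of the group was called. Of the 16 tested probes 0 had an adjusted p under 0.05, against 3.64% of all tested probes, and the methods' t-test with the same adjustment also called 0. At an unadjusted p under 0.05 there were 3 of 16 (18.8%), against 28.8% of all probes. The genotypes did not overlap for 4 of 16 probes (25.0%), against 16.7% of all probes. Changes were up for 10 probes and down for 6, with a median of 0.05 beside 0.04 over all tested probes. The standard errors ran from 0.10 to 0.39. The wild type arrays were more spread than the VRK1-deficient arrays for 11 of the 16 probes (68.8%), beside 78.4% of all tested probes.

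**Figure D1:**
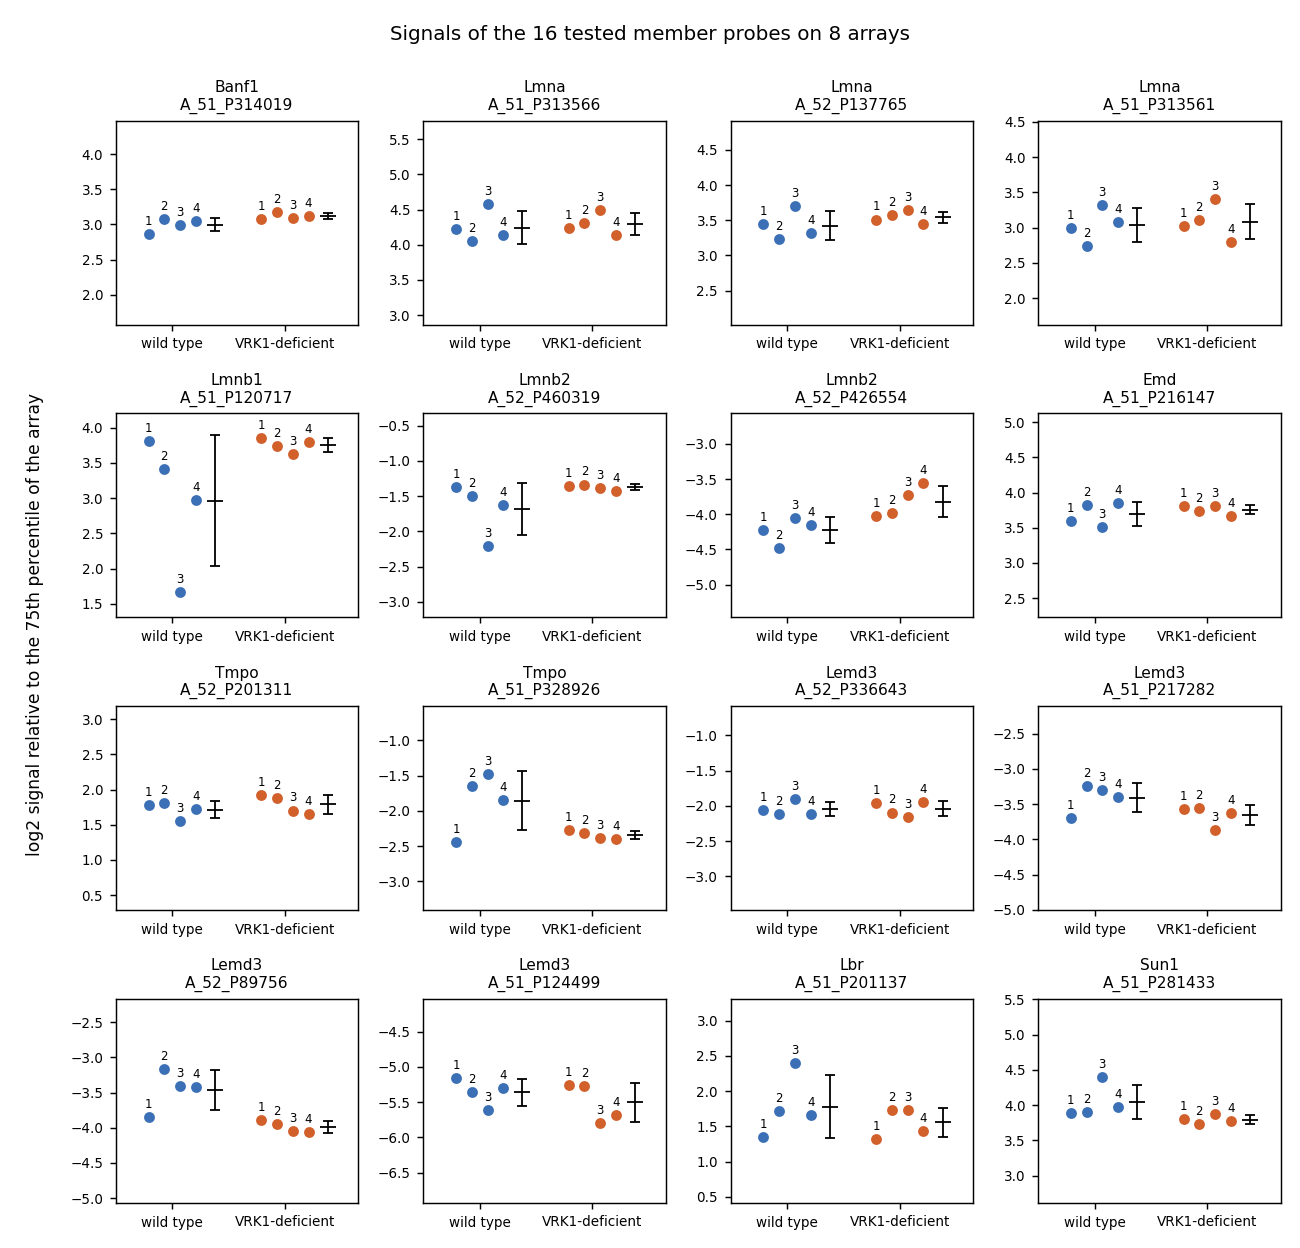
Signals of the 16 tested member probes, 1 panel a probe, as log2 of the signal over the array's 75th percentile; points are single arrays with their replicate number, and the black bar is the mean ± SD of the 4 arrays of a genotype. All panels span the same height on the log2 scale, so the wide wild type spread of Lmnb1 can be set against the tight Banf1 signals.

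Banf1, the substrate of VRK1 in this group, gave nearly the same signal in all 8 testes. Wild type replicates 1 to 4 read 2.871, 3.082, 2.993 and 3.051 on the log2 scale, and VRK1-deficient replicates read 3.083, 3.180, 3.095 and 3.122. All VRK1-deficient arrays lay above all wild type arrays, though wild type replicate 2 and VRK1-deficient replicate 1 were almost equal. The log2 change was 0.12 (SE 0.10, 95% interval -0.11 to 0.35, limma adjusted p = 0.444), so the mutant signal was 109% of wild type. It was 0.15 on slide 1 and 0.09 on slide 2. When the arrays were not scaled to each other the sign turned, to -0.06, while the median of all probes moved to -0.14.

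Lmna, which encodes lamins A and C by alternative splicing, was measured by 3 probes that moved together from array to array. The probe nearest the gene's end (A_51_P313566) read 4.217, 4.052, 4.574 and 4.135 in wild type and 4.230, 4.314, 4.496 and 4.140 in VRK1-deficient testis. The genotypes overlapped fully, and replicate 3 was the highest of its genotype in each. Its log2 change was 0.05 (SE 0.14, 95% interval -0.27 to 0.38, limma adjusted p = 0.836). The other Lmna probes had log2 changes of 0.12 (95% interval -0.17 to 0.40) and 0.05 (95% interval -0.33 to 0.43), with limma adjusted p of 0.558 and 0.854. Pearson's r between the 3 probes over the 8 arrays was 0.93, 0.91 and 0.81. Arrays that were high by one Lmna probe were thus high by the others, and slide 2 alone gave -0.04 and -0.09 for the first and the last probe.

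Lmnb1, encoding a B-type lamin found in most cells, showed the widest spread of any member. Its signal was 3.809, 3.411, 1.660 and 2.978 in wild type replicates 1 to 4 and 3.850, 3.741, 3.624 and 3.795 in VRK1-deficient replicates. The VRK1-deficient arrays were close to one another, and wild type replicate 1 read like them, whereas wild type replicate 3 was far below. As a percent of the wild type mean signal on the linear scale, wild type arrays ranged from 35.4 to 157 and VRK1-deficient arrays from 138 to 162. Its log2 change came to 0.79 (SE 0.39, 95% interval -0.09 to 1.67, limma adjusted p = 0.214) and did not pass the threshold. It was 0.19 on slide 1 and 1.39 on slide 2, 0.35 without wild type replicate 3, and 1.07 (adjusted p = 0.0557) without wild type replicate 1. The SD was 0.93 in wild type and 0.10 in VRK1-deficient testis.

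Lmnb2, the other B-type lamin gene, was measured by 2 probes. The junction probe printed above read -1.368, -1.501, -2.211 and -1.631 in wild type and -1.355, -1.335, -1.378 and -1.432 in VRK1-deficient testis. Here too wild type replicate 3 was the lowest array and wild type replicate 1 lay within the VRK1-deficient range. On the log2 scale the change was 0.30 (SE 0.18, 95% interval -0.10 to 0.70, limma adjusted p = 0.282), with 0.09 on slide 1, 0.52 on slide 2 and 0.13 without wild type replicate 3. A dim second probe, with no open reading frame, read -4.228, -4.481, -4.046 and -4.156 in wild type and -4.022, -3.987, -3.720 and -3.550 in VRK1-deficient testis. These did not overlap, and the log2 change was 0.41 (SE 0.15, 95% interval 0.07 to 0.74, unadjusted p = 0.0223, limma adjusted p = 0.117). Both means were higher in VRK1-deficient testis, but the arrays were ordered differently, with r of 0.14 between them over the 8 arrays.

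Lmnb1 and the Lmnb2 junction probe varied together over the 8 arrays. Their Pearson's r was 0.99 (exact permutation p = 0.00134, adjusted over 47 relations 0.0245). Spearman's rho was 0.81 (exact permutation p = 0.0218, adjusted 0.146). Without wild type replicates 3 and 4, the arrays farthest from the Lmnb1 median, r was 0.74 over 6 arrays. No correlation was computed between the dim second Lmnb2 probe and Lmnb1. Lmnb1 and Sun1 ran opposite, with r of -0.97 (exact permutation p = 0.0027, adjusted 0.0245) and rho of -0.71 (adjusted 0.246). That relation had r of -0.52 without the same pair of arrays, so it rests in part on them. Lmnb1 and Lbr gave r of -0.90 (exact permutation p = 0.0108, adjusted 0.0728), rho of -0.79 (adjusted 0.146) and -0.74 without the pair. The permutations moved arrays freely between genotypes, so a difference between genotypes counts in these r values and p-values. They therefore do not show that the members varied together within a genotype. A slide holds only 4 arrays, too few to give these relations within slides.

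**Figure D2:**
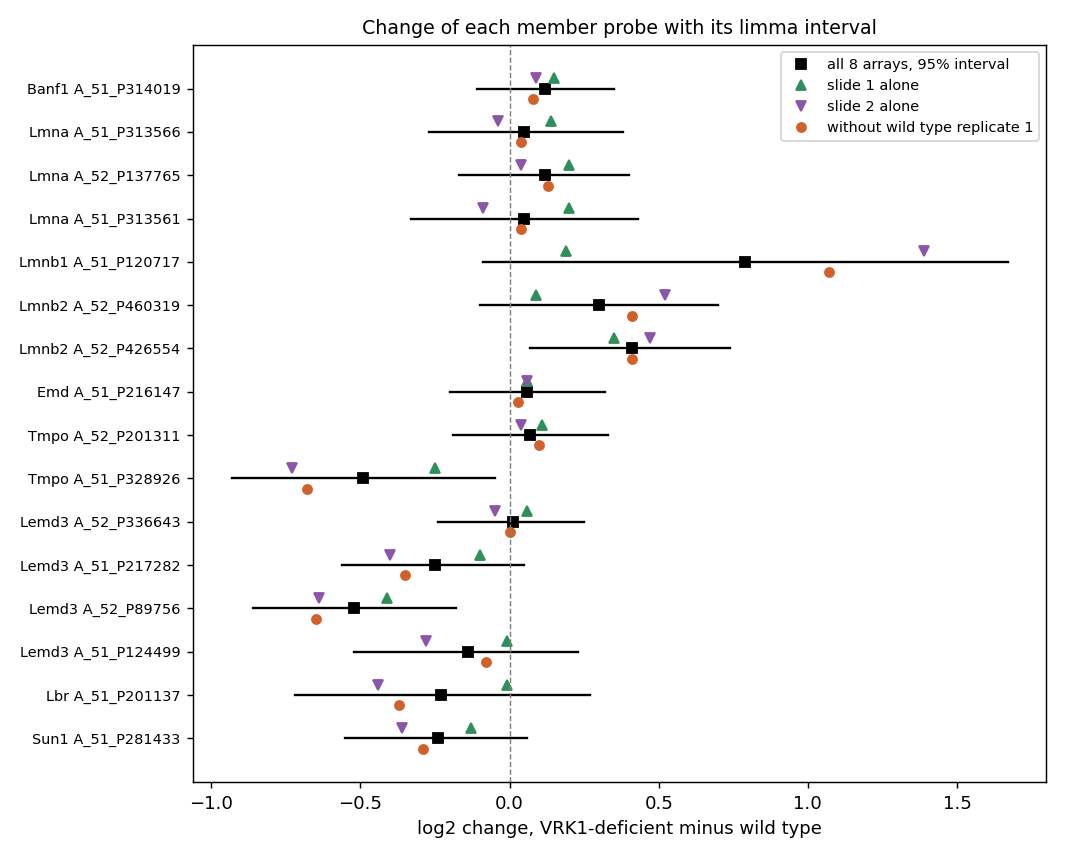
Log2 change (VRK1-deficient minus wild type) of each tested member probe; squares are the values over all 8 arrays with the 95% limma interval, triangles the values within slide 1 and slide 2, and circles the value without wild type replicate 1. Lmnb1 has the longest interval and the widest gap between slides (0.19 and 1.39).

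Among the LEM domain genes, Emd and the beta form of Tmpo differed between genotypes by less than their spread. Emd encodes emerin, which binds BAF and A-type lamins. Its signals ran from 3.507 to 3.845 in wild type and from 3.668 to 3.806 in VRK1-deficient testis, the latter wholly inside the former. This gave a log2 change of 0.06 (SE 0.12, 95% interval -0.20 to 0.32, limma adjusted p = 0.757). The Tmpo beta probe, which reads a membrane-bound LAP2 form that binds B-type lamins, had a log2 change of 0.07 (SE 0.12, 95% interval -0.19 to 0.33, limma adjusted p = 0.697). Its arrays lay between 1.547 and 1.806 in wild type and between 1.653 and 1.927 in VRK1-deficient testis.

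The other Tmpo probe (A_51_P328926) had a lower mean in VRK1-deficient testis. It read -2.444, -1.645, -1.477 and -1.848 in wild type and -2.266, -2.317, -2.381 and -2.397 in VRK1-deficient testis. The 3 other wild type arrays lay above every VRK1-deficient array, and wild type replicate 1 lay below all of them. The log2 change was -0.49 (SE 0.19, 95% interval -0.93 to -0.05, unadjusted p = 0.0337, limma adjusted p = 0.142), leaving 71.4% of the wild type signal. Without wild type replicate 1 it was -0.68 and passed, with a limma adjusted p of 0.00643. Over the 8 arrays this probe and the beta probe had r of -0.41. The probe listed as the zeta form was not well above background on any array and has no test.

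Lemd3 encodes MAN1, a LEM protein of the inner membrane that also binds receptor-regulated Smads, and its 4 probes gave unlike readings. The probe across the junction (A_52_P89756) read -3.854, -3.171, -3.409 and -3.428 in wild type and -3.890, -3.948, -4.048 and -4.062 in VRK1-deficient testis. The genotypes did not overlap, with wild type replicate 1 just above the mutant arrays. Its log2 change came to -0.52 (SE 0.15, 95% interval -0.86 to -0.18, unadjusted p = 0.00688, limma adjusted p = 0.0722), the smallest adjusted p among the members. It was -0.65 without wild type replicate 1, with a limma adjusted p of 0.0064. Under normexp correction the value was -0.06 (limma adjusted p = 0.744), so the value depended on the background correction of this dim probe.

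The neighbouring Lemd3 probe (A_51_P217282) followed the same arrays, with r of 0.90, and had a log2 change of -0.25 (SE 0.14, 95% interval -0.56 to 0.05, limma adjusted p = 0.250). The probe nearest the gene's end (A_52_P336643), had a log2 change of 0.01 (SE 0.11, 95% interval -0.24 to 0.25, limma adjusted p = 0.964). The probe farthest upstream was well above background on 4 wild type and 2 VRK1-deficient arrays and had a log2 change of -0.14 (SE 0.16, 95% interval -0.52 to 0.23, limma adjusted p = 0.587). Lemd3 therefore had 1 probe near 0 and 3 below it, with none called over all 8 arrays. With normexp correction A_51_P217282 was 0.08 and A_51_P124499 0.18, so the signs of these dim probes also depended on the background correction.

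Lbr encodes the lamin B receptor, which ties B-type lamins and heterochromatin to the inner membrane and has a sterol reductase domain. It read 1.355, 1.711, 2.402 and 1.654 in wild type and 1.325, 1.726, 1.734 and 1.436 in VRK1-deficient testis. Wild type replicate 3 alone stood high, and the other 7 arrays were mixed. On the log2 scale the change was -0.23 (SE 0.22, 95% interval -0.72 to 0.27, limma adjusted p = 0.514), with -0.01 on slide 1, -0.44 on slide 2 and -0.02 without wild type replicate 3.

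Sun1 encodes an inner membrane SUN protein that anchors telomeres in meiotic prophase. Its signal was 3.892, 3.898, 4.394 and 3.978 in wild type and 3.803, 3.730, 3.870 and 3.780 in VRK1-deficient testis. All VRK1-deficient arrays were below all wild type arrays, the closest being VRK1-deficient replicate 3 and wild type replicate 1. This gave a log2 change of -0.24 (SE 0.13, 95% interval -0.55 to 0.06, limma adjusted p = 0.257), or 84.4% of wild type. Wild type replicate 3 was again the array that stood apart, as for Lmnb1 and Lbr, and without it the value was -0.13.

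Wild type replicate 1 decided how many members passed. Without it 2 of the 16 probes were called (12.5%), both lower in VRK1-deficient testis, Tmpo A_51_P328926 and Lemd3 A_52_P89756. The same step raised the calls over all tested probes from 982 to 7641, or 28.4%. Leaving out any other single array gave 0 called member probes. Because this array was picked for its likeness to the VRK1-deficient arrays, the 2 calls without it are no separate support.

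The arrays that set the lamins, Lbr and Sun1 apart also differed in germ cell signal. The summed signal of 11 germ cell marker genes, in multiples of each array's 75th percentile, was 81.0, 140, 197 and 161 in wild type replicates 1 to 4 and 50.5, 86.8, 86.0 and 64.7 in VRK1-deficient replicates. Wild type replicate 1 lay within the VRK1-deficient range, and replicate 3 was the highest. In wild type, the order of the arrays by germ cell signal was the reverse of their order by Lmnb1. Of the 11 markers measured 11 had lower means in VRK1-deficient testis, with a median log2 change of -0.97, and 1 was called, Sall4, a spermatogonial transcription factor (-0.99, SE 0.22, limma adjusted p = 0.0493). Stra8, which drives entry into meiosis, had the largest difference (-1.48, SE 0.44, limma adjusted p = 0.0762) and Sohlh2, a regulator of differentiating spermatogonia, the smallest (-0.52, SE 0.24, limma adjusted p = 0.183). Without wild type replicate 1 all 11 were called lower, and the Sall4 call was lost in 13 of 20 alternatives, among them each with any other single array left out. The part of germ cell number in the lamin, Lbr and Sun1 values was not tested.

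**Figure D3:**
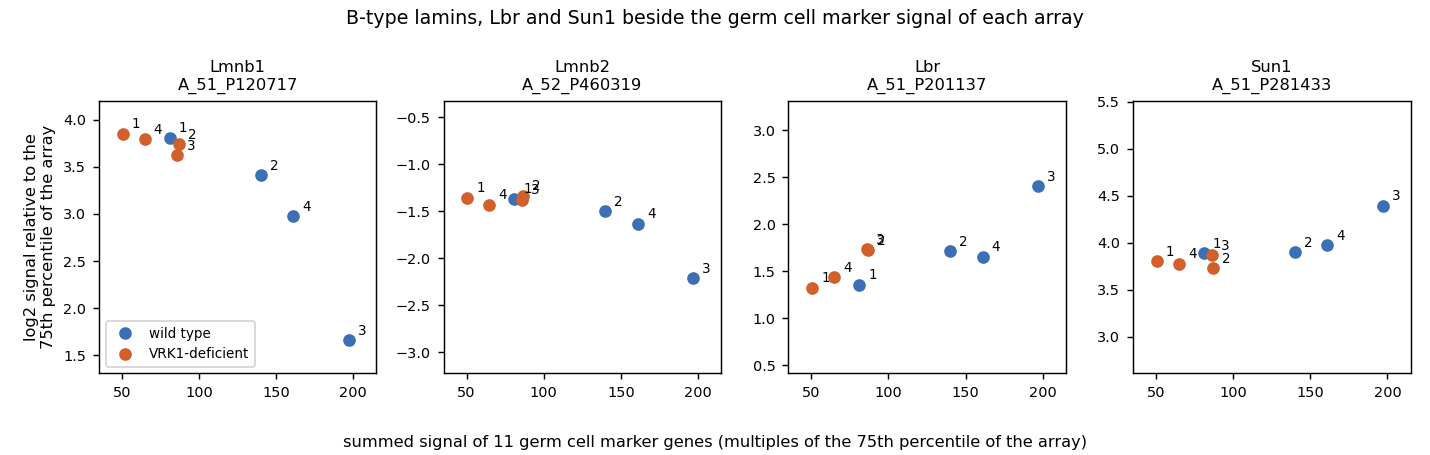
Log2 signal (over the array's 75th percentile) of Lmnb1, Lmnb2, Lbr and Sun1 on the vertical axes against the summed signal of 11 germ cell marker genes on the horizontal axis, with 1 point an array and its replicate number beside it. Wild type replicate 3 (germ cell signal 197) sits at the far end of each panel, and wild type replicate 1 (81.0) sits with the VRK1-deficient arrays.

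Markers of other testis cells had smaller median changes than those of germ cells. Sertoli cell markers were higher for 8 of 10 genes with a median log2 change of 0.36 and none called over all 8 arrays. Their summed signal was 202 to 299 in wild type and 270 to 316 in VRK1-deficient testis. Without wild type replicate 1, 7 of the 10 Sertoli cell markers were called higher (70%) and 1 lower (10%). The shares of named genes were 14.2% higher and 16.1% lower. Within that list Amh, the anti-Müllerian hormone, had a log2 change of 1.19 (limma adjusted p = 0.115) and Rhox5, an androgen-driven homeobox gene, one of -1.08 (limma adjusted p = 0.111). Leydig cell markers summed to 33.6 to 51.1 in wild type and 44.1 to 57.2 in VRK1-deficient testis, with 4 of 6 higher and none called. Among them the luteinizing hormone receptor gene Lhcgr had a log2 change of 0.43 (limma adjusted p = 0.0739) and the steroidogenic gene Star one of -0.12 (limma adjusted p = 0.861). Without wild type replicate 1, 2 of the 6 Leydig cell markers were called higher (33.3%). Every marker of these lists with a probe was well above background on at least 4 arrays.

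Dividing cell markers, whose envelopes are taken apart at mitosis, had a median log2 change of -0.01, and their sums overlapped (75.4 to 101 in wild type and 76.8 to 95.7 in VRK1-deficient testis). Of 10 such genes 1 was called, the mitotic kinase gene Cdk1 (0.48, limma adjusted p = 0.0493, lost in 16 of 20 alternatives), while the checkpoint kinase gene Bub1 had a log2 change of -0.51 (limma adjusted p = 0.269). The 5 peritubular myoid markers had a median of -0.06, their sums were 139 to 153 in wild type and 121 to 155 in VRK1-deficient testis, and 1 was called, the smooth muscle gene Cnn1 (-0.99, limma adjusted p = 0.0444, lost in 10 of 20 alternatives), beside Des at 0.33 (limma adjusted p = 0.178). Macrophage sums were 11.5 to 17.4 in wild type and 15.6 to 18.6 in VRK1-deficient testis, with none of 6 genes called, Lyz2 at 0.26 (limma adjusted p = 0.327) and Aif1 at -0.07 (limma adjusted p = 0.836). Endothelial sums did not overlap (2.35 to 2.93 and 3.03 to 3.52), with none of 4 genes called, Tek at 0.37 (limma adjusted p = 0.202) and Pecam1 at 0.12 (limma adjusted p = 0.700). Without wild type replicate 1, 1 of the 4 endothelial markers was called higher (25%). The part of these cells in the member values was not tested.

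The balance between members was compared directly in 6 pairs, as the difference of their log2 signals on each array. Lmna minus Lmnb1 had a log2 change of -0.74 (wild type 1.28 ± 1.13, VRK1-deficient 0.54 ± 0.24, SD, n = 4, exact permutation p = 0.200, adjusted over the 6 pairs 0.600). It was -0.05 on slide 1, -1.43 on slide 2 and -0.19 without wild type replicate 3. Lmnb1 minus Lmnb2 had a log2 change of 0.49 (exact permutation p = 0.114, adjusted 0.600) and Lmna minus Lmnb2 one of -0.25 (exact permutation p = 0.686, adjusted 0.686). Neither A-type against B-type lamin nor one B-type lamin against the other passed. Banf1 minus Emd had a log2 change of 0.06, Banf1 minus Tmpo one of 0.05 and Banf1 minus Lemd3 one of 0.11, with exact permutation p of 0.486, 0.629 and 0.314 and adjusted p of 0.686, 0.686 and 0.629. With 4 arrays against 4 the smallest two-sided exact p is 0.0286, and the brightest probe of each gene was used. With a gene's probes averaged instead, Banf1 minus Tmpo was 0.33 and Banf1 minus Lemd3 0.35, each at that smallest p and 0.0857 after adjustment. These averages include dim probes of Tmpo and Lemd3. With the brightest probes and normexp correction the 2 pairs were -0.01 and 0.01.

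The wider envelope machinery was read from 8 lists holding 82 genes beside the members and Vrk1, of which 77 were tested with 1 probe a gene. Of these 2 were called (1 higher and 1 lower), against 4.28% of all 14750 named genes, and at an unadjusted p under 0.05 there were 10 higher and 17 lower, beside 15.3% and 15.7% of named genes. Their median log2 change was -0.04 beside 0.03 over all named genes. Without wild type replicate 1, 24 of 77 were called (31.2%), beside 30.3% of named genes, and without any other single array 0 were.

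Genes listed for the phosphorylation of BAF, other than Vrk1, were not called over all 8 arrays. Without wild type replicate 1, 2 of the 8 genes of that list, 1 of them Vrk1, were called lower (25%), beside 16.1% of named genes. That share counts Vrk1, the trapped gene itself, so it does not show an excess among the other genes. Among the 8 genes of that list, the kinases Vrk2 and Vrk3 had log2 changes of 0.22 and -0.01, with limma adjusted p of 0.231 and 0.943. Ppp2r1a, a scaffold subunit of the phosphatase PP2A that dephosphorylates BAF, had a log2 change of 0.36 (SE 0.15, limma adjusted p = 0.157) with genotypes that did not overlap, and Ppp2r1b, the other scaffold subunit, one of -0.51 (SE 0.17, limma adjusted p = 0.101). Vrk2, Vrk3 and Ppp2r1b were named after their values were seen. Among the 5 other BAF and LEM genes, Ankle2, a LEM protein that brings PP2A to BAF after mitosis, had a log2 change of -0.50 (SE 0.16, limma adjusted p = 0.0858), and Lemd1 one of 0.29 (limma adjusted p = 0.212). The median of those 5 was -0.08.

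Other LINC genes, among them the SUN genes Sun2 and Spag4 as well as partners of SUN proteins, were split. Of 10 genes 7 were tested, 5 with a lower and 2 with a higher mean, and none was called. Without wild type replicate 1, 1 of the 7 was called higher and 2 lower (42.9%), beside 30.3% of named genes. Kash5, which couples Sun1 to dynein in meiotic cells, had a log2 change of -0.97 (SE 0.30, limma adjusted p = 0.0801) and Syne3, encoding a nesprin, one of 0.74 (SE 0.29, limma adjusted p = 0.135). Sun3 and Sun5 were not well above background on any array.

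The list of other inner membrane proteins, which also holds torsin genes, had higher means for 9 of 12 genes with a median of 0.16 and none called. At an unadjusted p under 0.05 there were 4 higher and 0 lower, beside 15.3% and 15.7% of named genes. Those 4 include the torsin genes Tor1b (limma unadjusted p = 0.0356) and Tor3a (0.0421), so they are not all inner membrane protein genes. Without wild type replicate 1, 4 of the 12 were called higher (33.3%), beside 14.2% of named genes. Nrm, encoding nurim, had the highest value (0.67, SE 0.20, limma adjusted p = 0.0762) and Tmem120a the lowest (-0.18, limma adjusted p = 0.320). For lamin maturation, Zmpste24, the protease that trims prelamin A, had a log2 change of 0.39 (SE 0.11, limma adjusted p = 0.0654) with genotypes that did not overlap. Fntb, the farnesyltransferase subunit that acts before it, had a log2 change of -0.53 (SE 0.14, limma adjusted p = 0.0634). The 6 genes of that list had a median of 0.05, and none was called. Without wild type replicate 1, 1 of the 6 was called higher and 1 lower (33.3%), beside 30.3% of named genes. The sterol reductase relatives of Lbr gave -0.34 for Dhcr7 (limma adjusted p = 0.156) and 0.34 for Tm7sf2 (limma adjusted p = 0.283).

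Nuclear pore genes had lower means for 21 of 28, with a median log2 change of -0.25. Of these 1 was called, Nup210, a membrane-spanning nucleoporin, which read 1.563, 2.018, 1.769 and 1.752 in wild type and 1.096, 1.292, 1.166 and 1.151 in VRK1-deficient testis. The genotypes did not overlap, and Nup210 fell by 0.60 on the log2 scale (SE 0.12, limma adjusted p = 0.0473). Nup133, of the outer ring of the pore, had a log2 change of -0.68 (SE 0.18, limma adjusted p = 0.0612) and Nup188, of the inner ring, one of 0.42 (SE 0.53, limma adjusted p = 0.627). At an unadjusted p under 0.05 there were 9 lower and 1 higher, beside 15.7% and 15.3% of named genes. Without wild type replicate 1, 10 of 28 (35.7%) were called lower, beside 16.1% of named genes. The lower nuclear pore means stood beside the lower germ cell markers, whose part in it was not tested.

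Envelope sealing genes had higher means for 6 of 9, with a median of 0.15. Of these 1 was called, Vps4a, an ATPase of the ESCRT machinery that closes the reforming envelope. It read -3.952, -3.936, -3.785 and -3.555 in wild type and -3.075, -3.106, -2.865 and -3.403 in VRK1-deficient testis, without overlap. Vps4a rose by 0.69 (SE 0.15, limma adjusted p = 0.0474), and Spast, encoding the microtubule-severing ATPase spastin, had a log2 change of -0.69 (SE 0.20, limma adjusted p = 0.0729). The calls of Vps4a and Nup210 lay just inside the threshold. Each was lost with slide as a block (limma adjusted p = 0.0509 for both) and without any single array other than wild type replicate 1.

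**Figure D4:**
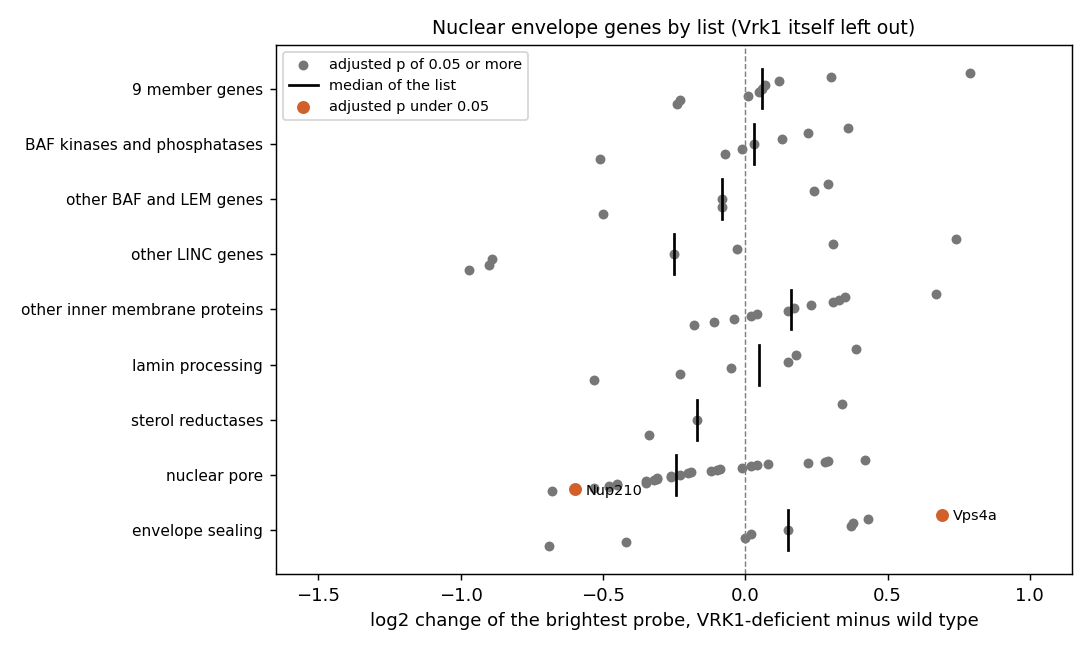
Log2 change (VRK1-deficient minus wild type) of the brightest probe of each gene, by list, with Vrk1 left out; each point is a gene, black bars are list medians and orange points have a limma adjusted p under 0.05. Only Nup210 and Vps4a are orange in the 9 rows, and the nuclear pore median is -0.25.

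The probes most like Banf1 in their pattern over the 8 arrays were those of Tfpt (Pearson's r of 0.951), Cep112 (0.945), Slc9a3r1 (0.937), Abca6 (0.933) and Tubd1 (0.926). They ranked highest by r among the tested probes with a gene name, and were picked for that rank. Their log2 changes were 0.10 for Tfpt, 0.33 for Cep112, 0.23 for Slc9a3r1, 0.85 for Abca6 and 0.61 for Tubd1. Abca6 was well above background on 2 wild type and 3 VRK1-deficient arrays only. In all of them wild type replicate 1 was the lowest array, as it was for Banf1. Without it, an alternative chosen after seeing the data, r over 7 arrays was 0.85, 0.82, 0.92, 0.79 and 0.76 in the same order, and the log2 changes were 0.05, 0.21, 0.19, 0.49 and 0.37. None of these 5 was called, the limma adjusted p being lowest for Tubd1 at 0.112.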

How the data were processed

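Total RNA of testes was labelled with Cy3 and hybridized to Agilent whole mouse genome arrays, 4 wild type and 4 VRK1-deficient. The authors deposited Agilent Feature Extraction output (version 9.5.3.1 in the submitters' processing notes), and the values used were its background-corrected intensity per spot (gProcessedSignal). A table of values that the authors also deposited was equal to these intensities, with no log2 transformation and no scaling between arrays. No depth applies to arrays, and their number limits the precision. Intensities were divided by the 75th percentile of their array (548 to 848) and log2-transformed. Control spots and outlier-flagged spots were dropped, spots of a probe were averaged, and a probe was kept where at least 4 of 8 arrays read it well above background. Genotypes were compared with limma (version 3.58.1, R 4.3.3) and Benjamini-Hochberg adjustment over all 26948 tested probes, a test tried first on simulated data. Pairs and correlations used exact permutation of arrays, and the correlations took no account of genotype. Gene lists used the probe with the highest mean signal, older symbols were matched through RefSeq names (GRCm38.p6), and in each list the genes with the largest rise and fall, and those called, were named. The members and lists were chosen with earlier results of these data known. Alternatives were quantile normalization, normexp (offset 50), the unscaled table, median scaling, other filters, slide or replicate block, each slide alone, each array left out, the methods' t-test, an intensity trend with robust variances, and the mean of all probes. Exon and UTR annotation of the probes on mm7 was not used here. Sequences of 10 of the 17 member probes are not reported here.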

Additional observations from a re-analysis of the deposited data

Results flagged for a closer look

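Sun1 in wild type replicate 3 read 4.39 on the log2 scale, beside 3.98 for the nearest of the 3 other wild type arrays. The lowest wild type array read 3.89, and the gap as a share of the range was just past Dixon's critical value for 4 samples. It was 1 of 32 groups of 4 arrays examined among the members, where chance at 1 in 20 would give about 1.6. The same array had the lowest Lmnb1 and the highest Lbr signal, and the highest summed germ cell marker signal (197).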

How the results depend on the processing

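Under the alternatives run, 0 member probes were called except without wild type replicate 1; leaving out each array in turn gave 0 to 2. The called probes over all tested probes, 982, became 596 with median scaling, 17 without a filter on dim probes, 626 with slide as a block, 3 on slide 1 alone, 217 with the methods' t-test, 1920 with an intensity trend and robust variances, and 3 to 7641 when each array was left out. The envelope list genes called, 2, became 4 with normexp, 6 with the intensity trend, and 0 with the unscaled table, median scaling, no filter, slide as a block, slide 1 alone or the t-test, and 0 to 24 when each array was left out. With a replicate block, 2280 probes, 4 envelope list genes and 0 member probes were called. Correlations of the deviations of same-numbered arrays were 0.47, 0.07, 0.19 and -0.14, so the numbers were not taken as pairs.

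Signs turned for small changes. With the unscaled table (all-probe median -0.14) Banf1 was -0.06, Lmna -0.13, -0.06 and -0.13, Emd -0.12, Tmpo beta -0.11, Lemd3 A_52_P336643 -0.17 and Pecam1 -0.06. With normexp (all-probe median 0.12) Emd was -0.01, Lemd3 A_51_P217282 0.08, Lemd3 A_51_P124499 0.18 and Banf1 minus Tmpo -0.01. On slide 2 alone Lmna A_51_P313566 was -0.04, the last Lmna probe -0.09, Lemd3 A_52_P336643 -0.05 and Aif1 0.12, and on slide 1 alone Star was 0.82, Nup188 -0.27 and Lmna minus Lmnb2 0.05. With the mean of all probes Tmpo was -0.21 and Lemd3 -0.23, while Banf1 minus Tmpo was 0.33 and Banf1 minus Lemd3 0.35. The filter on all 8 arrays left no value for Lemd3 A_51_P124499.

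When each array was left out in turn, the ranges that crossed 0 were -0.02 to 0.16 for Lmna A_51_P313566, -0.05 to 0.15 for the last Lmna probe, 0.00 to 0.11 for Emd, -0.02 to 0.06 for Lemd3 A_52_P336643, -0.42 to 0.11 for Star, -0.05 to 0.24 for Pecam1, -0.21 to 0.09 for Aif1, -0.14 to 0.74 for Nup188, -0.38 to 0.04 for Lmna minus Lmnb2 and -0.02 to 0.10 for Banf1 minus Tmpo. Lmnb1 minus Lmnb2 ranged from 0.23 to 0.66, the highest without wild type replicate 1 (exact permutation p = 0.0286, adjusted 0.171). Among those that gained a call without that array were Tmpo A_51_P328926, Lemd3 A_52_P89756, Amh, Ankle2, Bub1, Fntb, Kash5 and Lhcgr. Nrm, Nup133, Rhox5, Sohlh2, Spast, Stra8, Syne3 and Zmpste24 gained one too. Without any other single array Cdk1, Cnn1, Nup210, Sall4 and Vps4a lost their calls. The cause of these shifts was not tested, and dim probes are limited by their signal over background.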
